A study of Rattus norvegicus with 8 samples.

Results

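The opioid system of the rat brain was followed through 5 genes, the receptors Oprm1, Oprd1 and Oprk1 and the peptide precursors Penk and Pdyn. All probe sets that the platform's annotation table assigns to these symbols were taken, which gave 10 of the 8740 probe sets that are not array controls. A probe set is the group of short oligonucleotides on an array that reads 1 transcript sequence. Oprm1 had 4 probe sets, Oprk1 and Pdyn had 2 each, and Oprd1 and Penk had 1 each.

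Total RNA of whole rat brain was measured on 8 arrays, 1 per sample. The control group comprised 3 samples of rats given isoflurane, an inhaled general anaesthetic, for 3 min and then perfused at once with cold saline. The 1 hr group comprised 2 samples and the 2 hr group 3 samples of rats that received 2% isoflurane for that time, and every rat was intubated. The sources used here give no strain, sex or age and do not say how the exposed brains were collected. The control is itself a brief exposure to the anaesthetic. The labels speak of a rat for each sample but give no animal number, so p-values rest on the spread among these samples, which may in part be technical. The question was whether opioid transcripts differed after 1 hr or 2 hr of the anaesthetic.

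Opioid receptors couple to inhibitory G proteins, which lower cyclic AMP, open inwardly rectifying potassium channels and close calcium channels. The mu receptor Oprm1 is the main target of morphine, the delta receptor Oprd1 binds enkephalins, and the kappa receptor Oprk1 binds dynorphins. Proenkephalin (Penk) is cut into enkephalins and prodynorphin (Pdyn) into dynorphins. In the striatum, neurons that project to the globus pallidus make Penk together with the adenosine receptor Adora2a and the dopamine receptor Drd2. Striatal neurons that project to the substantia nigra make Pdyn together with the dopamine receptor Drd1 and the substance P precursor Tac1.

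None of the opioid probe sets passed the test in any comparison. Values below an intensity of 9.1, the 20th percentile of all values, were raised to that floor before log2 was taken, and 9 of the 10 probe sets lay above it on at least 2 arrays and were tested. With limma and Benjamini-Hochberg adjustment over 7770 probe sets, 0 of the 9 had an adjusted p under 0.05 at 2 hr against control, at 1 hr against control or at 2 hr against 1 hr. Over all probe sets the count was also 0 (0.00%) in each comparison. At an unadjusted p under 0.05 there was 1 opioid probe set at 2 hr against control, where 1.79% of all probe sets were called, and 0 in the others, where 2.68% were called at 1 hr against control and 2.77% at 2 hr against 1 hr. Both comparisons with the control share the same 3 control arrays. By sign, 4 of the 9 were higher and 5 lower at 2 hr against control, where 52.3% of all probe sets were higher. At 1 hr against control 5 were higher and 4 lower (55.8% of all higher), and at 2 hr against 1 hr 3 were higher and 6 lower (47.4% of all higher).

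The arrays differed in ways that cut across the groups. A top intensity of 23009 to 37712 was reached by 1 array of each group (control replicate 3, 1 hr replicate 1 and 2 hr replicate 3), whereas the other 5 topped out at 12445 or less. A 5S ribosomal RNA control read 12.9 to 23.7 on control replicates 1 and 2 and 2 hr replicate 1, and at least 70.4 elsewhere. Brain markers were present, with 11 of 12 measured neuron markers, 12 of 12 astrocyte markers and 8 of 8 oligodendrocyte markers tested, and Slc17a7, a vesicular glutamate transporter, was at the floor on all arrays.

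**Figure D1:**
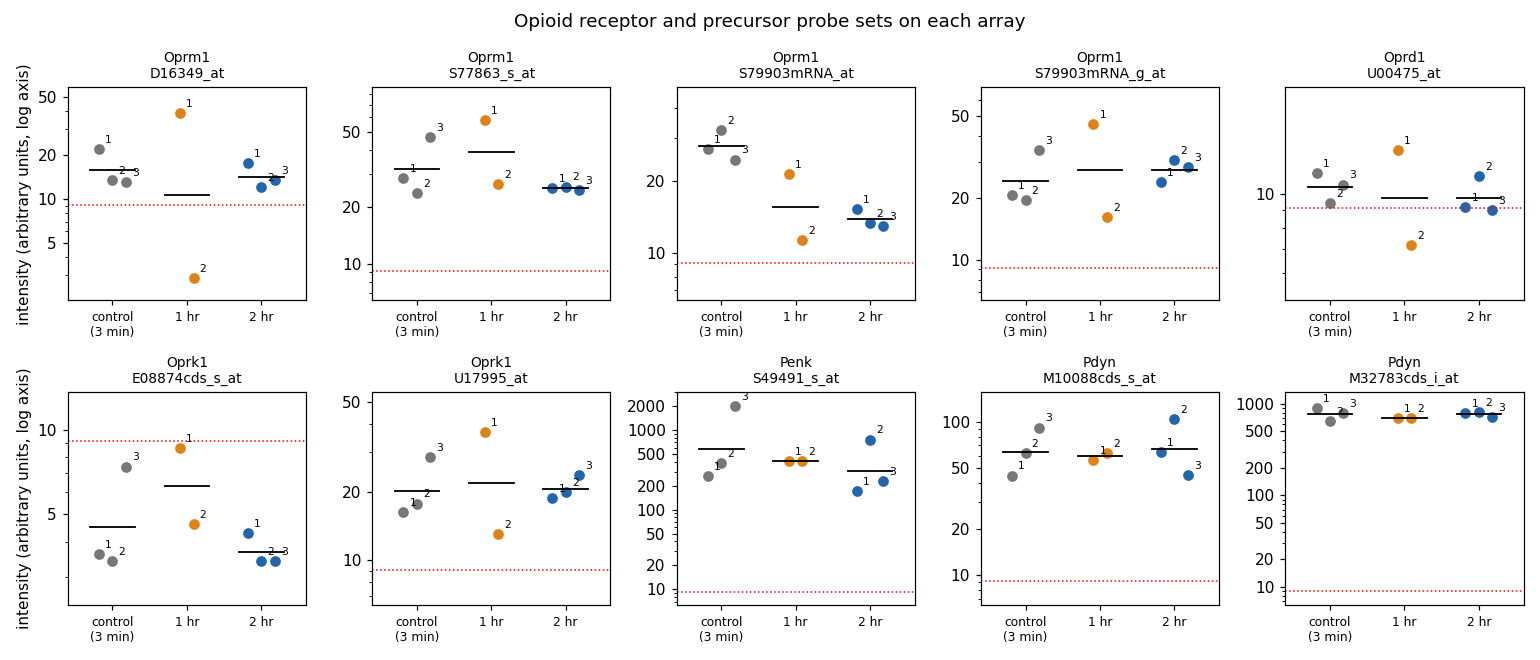
Intensity of each of the 10 opioid probe sets on every array, on log axes, for the control (grey), 1 hr (orange) and 2 hr (blue) groups. Each point is 1 array with its replicate number, black bars are geometric means of the deposited values and the dotted red line is the floor of 9.1; the Oprm1 probe set S79903mRNA_at is the 1 in which all exposed arrays lie below all controls.

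The mu receptor gave the only opioid reading that separated the exposed arrays from the controls, and it came from 1 of its 4 probe sets. S79903mRNA_at had intensities of 27.2, 32.6 and 24.5 on the control arrays, 21.3 and 11.3 at 1 hr, and 15.3, 13.3 and 13.0 at 2 hr. All 5 exposed arrays lay below all 3 control arrays. At 2 hr its log2 intensity was 3.79 ± 0.13 (SD, n = 3), against 4.80 ± 0.21 (SD, n = 3) in the controls, a log2 change of -1.01 (SE 0.365, 95% interval -1.83 to -0.19) or 2.02-fold lower. Limma gave this change an unadjusted p of 0.0205 and an adjusted p of 1. The groups did not overlap in this direction for 2.55% of all probe sets.

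At 1 hr the same probe set averaged 3.96 ± 0.65 on the log2 scale (SD, n = 2), against 4.80 ± 0.21 in the controls (SD, n = 3). The log2 change was -0.85 (SE 0.409, limma adjusted p = 1), and 5.11% of all probe sets lay below the controls without overlap. This value rested on 1 hr replicate 2, without which it was -0.39. Between 2 hr and 1 hr the log2 change was -0.17 (SE 0.409, limma adjusted p = 1). After these values were seen, the mean of both exposed groups was set against the control. The log2 change was -0.93 (SE 0.329, limma adjusted p = 0.999). All 5 exposed arrays lay below all controls for 78 of the 7770 probe sets, 1.00%.

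Within the array splits the 2 hr difference of S79903mRNA_at is given as values only, since groups that do not overlap give the same sign in any subset. Among the 3 arrays of highest top value the difference was -0.91 (1 array at 2 hr against 1 control), and among the other 5 it was -1.06 (2 against 2). Among the 3 arrays of low 5S reading it was -0.96 (1 against 2), and among the others -0.90 (2 against 1).

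The other 3 mu receptor probe sets did not separate the groups from the controls. S79903mRNA_g_at, designed on the same sequence entry, read 20.7, 19.6 and 34.3 in the controls, 45.9 and 16.1 at 1 hr, and 24.0, 30.5 and 28.2 at 2 hr. Its log2 change at 2 hr was 0.19 (SE 0.486, limma adjusted p = 1), on the other side of 0 from its partner. S77863_s_at, the brightest of the 4, read 28.4, 23.7 and 47.3 in the controls, 57.8 and 26.6 at 1 hr, and 25.2, 25.7 and 24.5 at 2 hr. Its 2 hr arrays lay within 1.2 intensity units of each other and inside the range of the controls. The log2 change was -0.33 at 2 hr (SE 0.460) and 0.31 at 1 hr (SE 0.515), and limma's adjusted p was 1 for both. The 2 hr value was -0.05 without control replicate 3, and the 1 hr value was -0.25 without 1 hr replicate 1. Its 2 hr arrays lay below both 1 hr arrays, at a log2 change of -0.64 (SE 0.515, limma adjusted p = 1), where 7.82% of all probe sets did so, and without 1 hr replicate 1 the change was -0.08. D16349_at read 22.0, 13.4 and 13.1 in the controls, 38.6 and 2.9 at 1 hr, and 17.5, 12.1 and 13.4 at 2 hr, so that the 1 hr arrays held both its highest and its lowest value. Its log2 change was -0.15 at 2 hr (SE 0.516) and 0.26 at 1 hr (SE 0.577), with a limma adjusted p of 1 for both. Over the 8 arrays, S79903mRNA_at correlated with S79903mRNA_g_at at a Pearson r of 0.09 and with S77863_s_at at 0.30, while S79903mRNA_g_at and S77863_s_at correlated at 0.76.

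**Figure D2:**
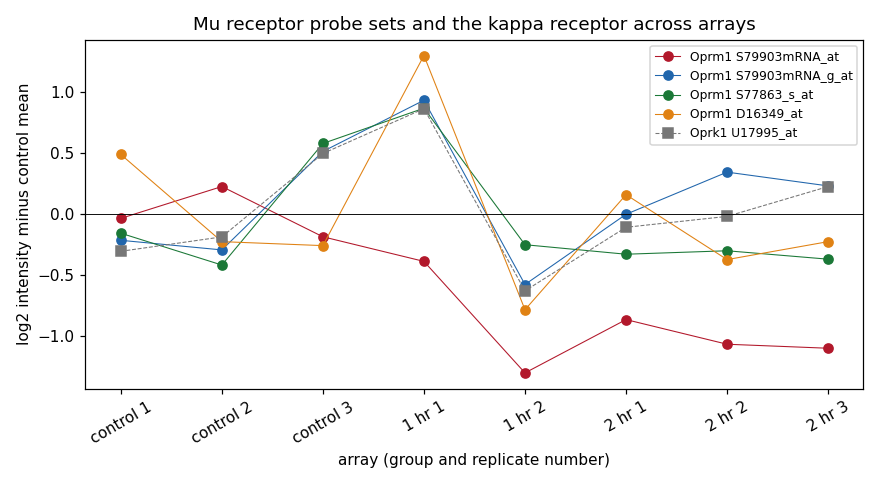
log2 intensity of the 4 Oprm1 probe sets and of the Oprk1 probe set U17995_at on each of the 8 arrays, minus the mean of the 3 controls. Points are arrays and lines only join the points of a probe set; S79903mRNA_at (red) is below 0 on all 5 exposed arrays, whereas the others peak on 1 hr replicate 1.

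RefSeq lists 15 transcripts for Oprm1, against 1 for Oprd1, 3 for Oprk1, 2 for Penk and 1 for Pdyn. The promoter windows used here cover 2 starts of Oprm1, 20612 bases apart. They need not cover every start, since they include 0 windows for Oprk1 and Penk. The stretches around the 2 Oprm1 starts are shown as a description of the gene, and no probe set was assigned to either start. Which transcripts each probe set reads was not tested. Each runs from 100 bases before a start to the 30th transcribed base, with the transcribed bases in capitals (RefSeq, build GRCr8, plus strand). The sources used here name no build for the array's own probes.
Oprm1 upstream start, chr1:45565271-45565400: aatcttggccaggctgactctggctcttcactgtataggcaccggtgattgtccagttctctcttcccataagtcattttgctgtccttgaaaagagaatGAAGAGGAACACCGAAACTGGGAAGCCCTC
Oprm1 downstream start, chr1:45585883-45586012: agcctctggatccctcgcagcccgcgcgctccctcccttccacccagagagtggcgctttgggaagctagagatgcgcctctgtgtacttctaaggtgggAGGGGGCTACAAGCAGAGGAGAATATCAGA

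Over 300 bases around each start, the upstream one had a GC content of 39% with 3 CpG sites and the downstream one 57.7% with 15, where the medians over 33469 such windows of the genome were 51.7% and 7. Neither window held TATAAA, found on either strand in 14.2% of all windows, or the cyclic AMP response element TGACGTCA, found in 1.83%.

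The delta receptor was close to the floor. Its probe set U00475_at read 11.4, 9.4 and 10.6 in the controls, 13.2 and 7.2 at 1 hr, and 9.2, 11.2 and 9.0 at 2 hr, above the floor on 6 of 8 arrays. The groups overlapped in every comparison. The log2 change at 2 hr was -0.09 (SE 0.245, 95% interval -0.64 to 0.46) and at 1 hr 0.07 (SE 0.274, 95% interval -0.54 to 0.68), both with a limma adjusted p of 1. At this signal a change of the transcript below the floor is not visible on these arrays.

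The kappa receptor did not separate the groups either. U17995_at read 16.4, 17.8 and 28.6 in the controls, 36.9 and 13.1 at 1 hr, and 18.8, 20 and 23.7 at 2 hr. The 3 arrays at 2 hr lay inside the control range, and the 1 hr arrays held the highest and the lowest value. The log2 change was 0.03 at 2 hr (SE 0.464, 95% interval -1.01 to 1.07) and 0.12 at 1 hr (SE 0.519, 95% interval -1.05 to 1.28), with a limma adjusted p of 1 for both. The second Oprk1 probe set, E08874cds_s_at, lay between 3.4 and 8.6, at or below the floor on all 8 arrays, and was not tested. It gives only an upper bound on its own signal, since U17995_at of the same gene read above the floor on all 8 arrays.

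All dim receptor probe sets but S79903mRNA_at, which was highest on control replicate 2, peaked on the same array. On 1 hr replicate 1, 6 of the 7 receptor probe sets had their highest value. The 6 include several probe sets of 1 gene, Oprm1, and the untested E08874cds_s_at, which read 8.6 there, below the floor. This array also held the highest value for 22.2% of all tested probe sets and for 31.3% of the dimmer 3885, and 85.0% of its probe sets lay above the floor, against 77.8% to 81.2% on the other arrays. The part of this array property in the 1 hr receptor values was not tested. Over the 8 arrays Oprk1 U17995_at and Oprm1 S79903mRNA_g_at correlated at a Pearson r of 0.96 and a Spearman rho of 0.95, points that share arrays and their scaling. Other Oprm1 probe sets were less alike to U17995_at, S77863_s_at at r = 0.80 and rho 0.36, and S79903mRNA_at at r = 0.23 and rho 0.05.

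**Figure D3:**
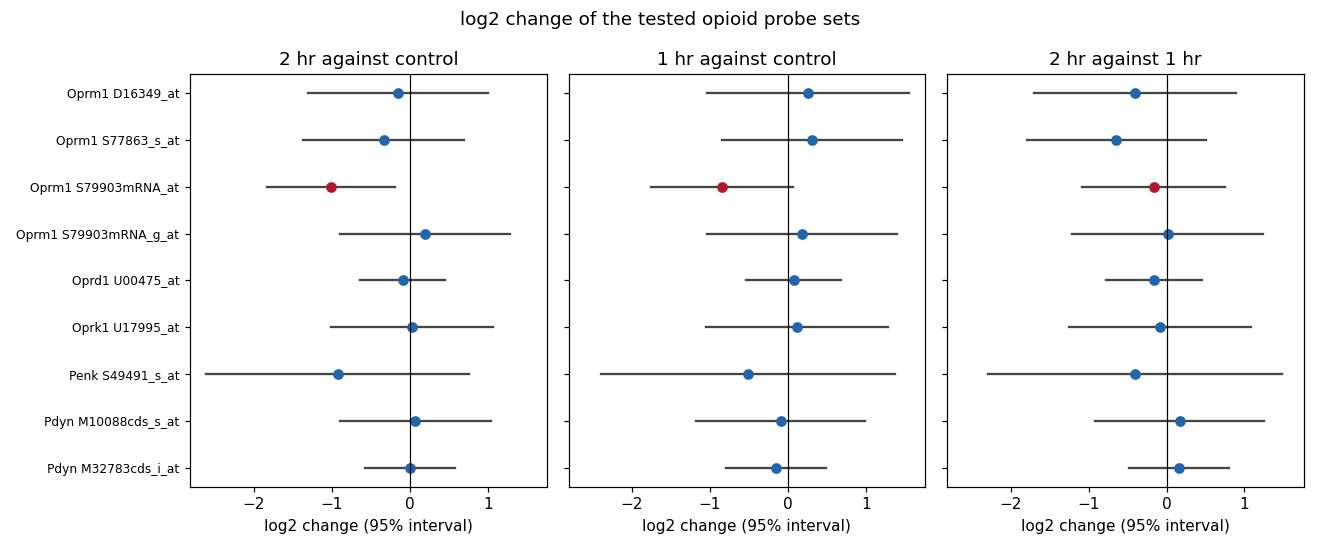
log2 change of the 9 tested opioid probe sets (rows) for 2 hr against control, 1 hr against control and 2 hr against 1 hr, with limma's 95% intervals as bars. The interval lies wholly on 1 side of 0 for S79903mRNA_at (red) at 2 hr against control only, and these intervals are not adjusted for the number of probe sets.

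Proenkephalin varied widely among the control arrays and among the 2 hr arrays. S49491_s_at read 263, 380 and 2011 in the controls, 405.6 and 412.2 at 1 hr, and 172.2, 759.1 and 226.8 at 2 hr. Control replicate 3 was the highest of all arrays, 2 hr replicate 2 the second highest, and both 1 hr arrays lay inside the control range. The highest value was 11.7 times the lowest, and 98.3% of all tested probe sets had a smaller range over the 8 arrays.

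At 2 hr Penk averaged 8.27 ± 1.14 on the log2 scale (SD, n = 3), against 9.19 ± 1.56 in the controls (SD, n = 3). The log2 change was -0.92 (SE 0.753, 95% interval -2.61 to 0.77, limma adjusted p = 1). Without control replicate 3 it was -0.03, without 2 hr replicate 2 it was -1.57, and without 2 hr replicate 1 it was -0.50. At 1 hr the mean was 8.68 ± 0.02 (SD, n = 2), against 9.19 ± 1.56 in the controls (SD, n = 3), a log2 change of -0.52 (SE 0.841, limma adjusted p = 1) that turned to 0.37 without control replicate 3. Among the 3 arrays of highest top value the 2 hr difference was -3.15 (1 against 1), and among the other 5 it was 0.19 (2 against 2). Among the 3 arrays of low 5S reading it was -0.88 (1 against 2), and among the others -2.28 (2 against 1).

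Penk followed several markers of striatal projection neurons from array to array. Adora2a, the adenosine receptor of the Penk-making striatal neurons, read 111.1, 131.3 and 537 in the controls, 175.4 and 150.7 at 1 hr, and 109.1, 362.8 and 121.7 at 2 hr. Drd1, the dopamine receptor of the Pdyn-making ones, read 20.4, 51.6 and 193.3 in the controls, 45.7 and 30.8 at 1 hr, and 36.0, 121 and 35.9 at 2 hr. Both were highest on control replicate 3 and next highest on 2 hr replicate 2, as Penk was. Drd2, the dopamine receptor of the Penk-making neurons, read 17.6, 8.7 and 14.8 in the controls, 15.5 and 27.5 at 1 hr, and 8.9, 124.1 and 8.7 at 2 hr. It was highest on 2 hr replicate 2, was not raised on control replicate 3, and lay below the floor on 3 arrays. Tac1, the substance P precursor, read 67.4, 231.8 and 1584 in the controls, 520.7 and 128.6 at 1 hr, and 169.6, 515.8 and 187 at 2 hr. Tac1 was highest on control replicate 3, with 1 hr replicate 1 and 2 hr replicate 2 nearly level behind it.

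Of 31 striatal markers listed, 19 were measured, and 1, Gpr6, was at the floor on all arrays. Their summed intensity was 2296 to 6039 in the controls, 3082 to 3118 at 1 hr and 2854 to 5885 at 2 hr, with the highest sums on control replicate 3 and 2 hr replicate 2. For the 14 markers above the floor on all 8 arrays the median Pearson r with Penk was 0.59, against 0.04 over 3393 genes, and r was over 0.7 for 5 of the 14 (35.7%), against 7.16% of all genes. Without control replicate 3 the medians were 0.68 for the markers and 0.12 for all genes. Other lists had medians about as high, at 0.60 for the 3 relatives Pomc, Oprl1 and Pnoc (0.58 without control replicate 3) and 0.57 for 4 blood cell markers (0.56 without it). The lowest 2 were the muscarinic receptor Chrm4 (r = -0.44, or 0.39 without control replicate 3) and Gad1, an enzyme of GABA synthesis (r = -0.36, or -0.34 without it), both named after their values were seen. Neuron markers in general had a median r of -0.71 with Penk, or -0.30 without control replicate 3, and astrocyte markers one of -0.55, or -0.65 without it. The part of the striatal markers in the Penk values was not tested. In whole tissue, fewer cells of a type and less RNA per cell cannot be told apart.

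**Figure D4:**
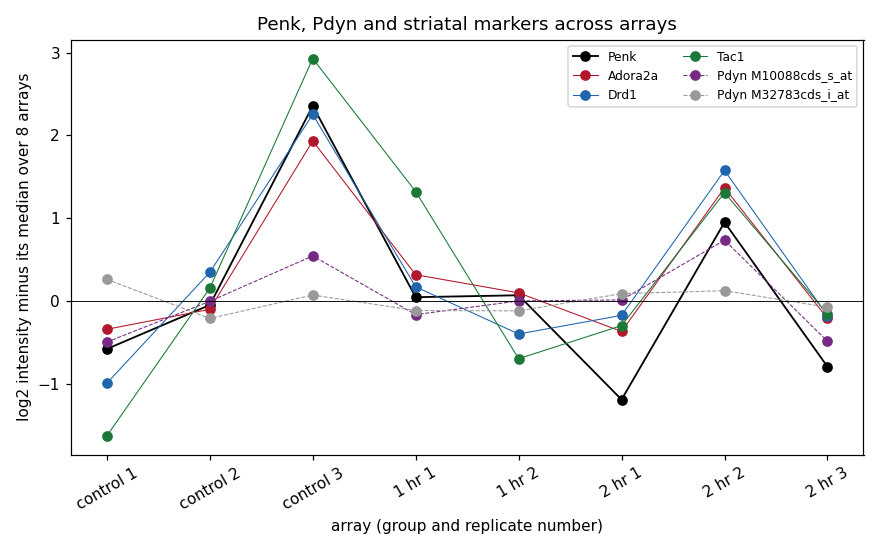
log2 intensity of Penk, of both Pdyn probe sets and of the striatal markers Adora2a, Drd1 and Tac1 on each of the 8 arrays, minus the median of each over the arrays. Points are arrays and lines only join the points of a gene; Penk and the 3 markers are highest on control replicate 3 and high again on 2 hr replicate 2, while Pdyn M32783cds_i_at stays near 0.

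By likeness to Penk over the 8 arrays, Adora2a ranked second of 3393 genes, at a Pearson r of 0.96 and a Spearman rho of 0.95, and at r = 0.90 without control replicate 3. Bad, a cell death promoter of the Bcl2 family, ranked first with r = 0.97 (rho 0.90), and Gpatch2, a G-patch protein, came next with r = 0.95 (rho 0.93). For Oprm1 S77863_s_at the most alike genes were Ung, a DNA repair glycosylase (r = 0.96, rho 0.53), Gng8, a G protein gamma subunit (r = 0.95, rho 0.40), and Akip1, a protein kinase A interacting protein (r = 0.95, rho 0.88). For Oprk1 U17995_at they were Lrrc7, a postsynaptic density protein (r = 0.97, rho 1), Scn7a, a sodium channel (r = 0.96, rho 0.79), and Chrna2, a nicotinic receptor subunit (r = 0.95, rho 0.98). For Pdyn M32783cds_i_at they were Aqp2, a water channel (r = 0.95, rho 0.95), Acaa2, an enzyme of fatty acid breakdown (r = 0.90, rho 0.86), and Sord, sorbitol dehydrogenase (r = 0.89, rho 0.90). These are the highest of 3393 correlations for each member over 8 arrays and are given as a description.

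Prodynorphin gave different array patterns on its 2 probe sets and no change that passed on either. M10088cds_s_at read 44.5, 62.6 and 91.5 in the controls, 56.0 and 62.8 at 1 hr, and 63.3, 104.4 and 44.8 at 2 hr. Like Penk, it was highest on control replicate 3 and 2 hr replicate 2, and over the 8 arrays it correlated with Penk at a Pearson r of 0.76 and with the 14 striatal markers at a median r of 0.73, against 0.08 over all genes. Other lists also lay above that background, at a median r of 0.58 for 8 microglia and macrophage markers (0.60 without control replicate 3). For 4 blood cell markers it was 0.50 (0.55 without that array). The log2 change of M10088cds_s_at was 0.07 at 2 hr (SE 0.432, 95% interval -0.90 to 1.04) and -0.10 at 1 hr (SE 0.482), and limma's adjusted p was 1 for both. Without 2 hr replicate 2 the 2 hr value was -0.25, and without control replicate 3 the 1 hr value was 0.17.

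M32783cds_i_at, the brighter Pdyn probe set, was among the steadiest of the array. It read 903.6, 652.1 and 792.9 in the controls, 696.5 and 694.8 at 1 hr, and 802.2, 822.3 and 716.5 at 2 hr. Its highest value was 1.39 times its lowest, and 2.64% of all tested probe sets had a smaller range. The log2 change was 0.01 at 2 hr (SE 0.256, 95% interval -0.57 to 0.58) and -0.16 at 1 hr (SE 0.287), with a limma adjusted p of 1 for both. All 2 hr arrays lay above both 1 hr arrays, at a log2 change of 0.16 (SE 0.287, limma adjusted p = 1), and 5.98% of all probe sets did so. Its correlation with the other Pdyn probe set over the 8 arrays was 0.12, and its median r with the 14 striatal markers was 0.02, against 0.01 over all genes.

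The relatives of the classical opioid genes were measured as well. Pomc, the precursor of beta-endorphin, read 25.1, 29.3 and 48.3 in the controls, 16.8 and 102.5 at 1 hr, and 12.7, 137.5 and 15.4 at 2 hr. The 2 highest arrays, 2 hr replicate 2 and 1 hr replicate 2, also had the highest sums of 10 pituitary markers, Pomc among them, which ran from 441 to 518 in the controls, from 504 to 772 at 1 hr and from 382 to 1157 at 2 hr. Single markers of this list differed between the 2 arrays. Cga read 594.1 on 2 hr replicate 2 and 132 on 1 hr replicate 2. Gh1 read 22.7, its lowest value, on the former and 156.5 on the latter, both markers named after their values were seen. The summed hypothalamic peptide markers were also highest on 2 hr replicate 2, at 6270. They did not follow Pomc at 1 hr, with 2511 on replicate 2 and 3897 on replicate 1, where Pomc read 16.8. None of the 10 pituitary markers was at the floor on all arrays. The part of either list in the Pomc values was not tested. The log2 change of Pomc was -0.13 at 2 hr (SE 0.953) and 0.34 at 1 hr (SE 1.07), with a limma adjusted p of 1 for both.

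The nociceptin receptor Oprl1 read 33.1, 33.6 and 12.7 in the controls, 25.8 and 37.2 at 1 hr, and 50, 34.0 and 28.2 at 2 hr, a log2 change of 0.59 at 2 hr (SE 0.505, limma adjusted p = 1). The groups overlapped. Prepronociceptin (Pnoc), its ligand precursor, had a log2 change at 2 hr of -0.10 (SE 0.263) on its brightest probe set, X97374exon_g_at, and of 0.12 (SE 0.278) and 0.66 (SE 0.596) on S79730_s_at and X97374exon_at, and limma's adjusted p was 1 for each. X97374exon_at read 52.3 on 2 hr replicate 2 and at most 13.5 on the other arrays.

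The enzymes that cut or break down opioid peptides were split in direction. Of 18 listed genes 14 were tested, and at 2 hr against control 6 were higher and 8 lower with a median log2 change of -0.06, against a median of 0.02 over all probe sets, of which 52.3% were higher. None passed with limma, where at an unadjusted p under 0.05 there were 0 of 14, against 1.79% of all probe sets. Pcsk2, a convertase of neuropeptide precursors, had a log2 change of -0.37 (SE 0.395), and its second probe set read -0.28. Cpe, the carboxypeptidase that trims the cut peptides, had a log2 change of 0.36 (SE 0.390). At 1 hr against control 7 were higher and 7 lower, where 55.8% of all probe sets were higher, and 0 passed with limma, with 0 of 14 at an unadjusted p under 0.05 against 2.68% of all.

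Of 47 listed genes of opioid receptor signalling and desensitisation 31 were tested. At 2 hr against control 17 were higher and 14 lower with a median log2 change of 0.04, against 0.02 over all probe sets, of which 52.3% were higher. At 1 hr against control 16 were higher and 15 lower with a median of 0.03, against 0.05 over all probe sets, of which 55.8% were higher. None passed with limma in either comparison, and at an unadjusted p under 0.05 there were 0 of 31 at 2 hr and 1 of 31 at 1 hr, where 1.79% and 2.68% of all probe sets were called. Gnb1, a G protein beta subunit, had a log2 change of -0.45 at 2 hr (SE 0.269), with 0.46 and -0.12 on its other probe sets. Rgs4, a regulator that ends G protein signals, had a log2 change of -0.49 (SE 0.409).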

How the data were processed

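Each array's deposited values are linear intensities, 1 for each of 8799 probe sets. The sources used here name no software, scaling or detection calls. Means after trimming 2% at each end were 150.17 to 150.32 on the 8 arrays, so values were used as deposited. The 59 control probe sets were left out. Values were floored at 9.1 (log2 3.19) and log2 was taken, which understates changes of dim genes. Probe sets above the floor on at least 2 arrays, 7770, were tested with limma 3.58.1 in R 4.3.3 (lmFit, contrasts.fit, eBayes with an intensity trend, all 8 arrays, 1 mean per group), with Benjamini-Hochberg adjustment over 7770 and a threshold of 0.05. Intervals are at 95%. The number of arrays limits precision. The steps were tested on simulated data.

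Symbols come from the platform table, and 6985 of its 7006 single symbols were matched by gene number to RefSeq (GRCr8). The RefSeq symbol was then used, whether or not it differed. A gene with several probe sets is represented by the brightest, and the others are given beside it. Named were all opioid probe sets, every relative, the 2 members of each opioid pathway list with the smallest p at 2 hr, the 3 genes most alike per member above the floor on all arrays, and striatal markers (Drd1, Drd2 and Tac1 chosen after their values were seen). Members and lists were chosen with earlier results of these data known. Alternatives covered normalization, floor, filter, spread estimate, blocks, left-out arrays and averaged probe sets. Arrays with the same replicate number did not deviate together throughout (r from -0.33 to 0.29), and the labels state no pairing.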

Additional observations from a re-analysis of the deposited data

How the results depend on the processing

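None of 28 opioid results passed under any of 23 alternative settings (smallest limma adjusted p = 0.353), and 545 of 614 values kept their sign while 69 did not. All 21 values of Oprm1 S79903mRNA_at at 2 hr against control were below 0, from -1.11 to -0.56, as were its 21 values at 1 hr against control, from -1.40 to -0.39; groups that do not overlap fix this sign when arrays are left out. The count of passing probe sets stayed at 0 except without the filter, with 4 at 1 hr against control and 4 at 2 hr against 1 hr. The floor at the 40th percentile removed Oprd1, D16349_at and S79903mRNA_at, and the strict filter removed Oprd1 and D16349_at. Signal near the floor limits the receptor values. The cause of the sign changes below was not tested.

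At 1 hr against control, Oprd1 was -0.10 with a floor at the 5th percentile, -0.067 with median centring, -0.023 with a pseudocount, -0.20 with quantile normalization and -0.19 without the 3 arrays of highest top value. Oprk1 was -0.014 with a block for those 3 arrays, -0.20 with a block for the 3 arrays of lowest 5S reading, -0.037 with quantile normalization and -0.38 without the 3 arrays of highest top value. Oprm1 D16349_at was -0.57 with the 5th percentile floor and -0.92 without those arrays, and S79903mRNA_g_at was -0.18 with the 5S block and -0.32 without them. The mean of the Oprm1 probe sets was -0.027. Pdyn M10088cds_s_at was 0.11 with array weights and 0.25 without the 3 arrays, and Penk was 0.15 and 0.38.

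At 2 hr against 1 hr, Oprd1 was 0.00043 with the 5th percentile floor, 0.10 with quantile normalization and 0.16 without the 3 arrays of highest top value. Oprk1 was 0.046 with the top-value block, 0.074 with the 5S block, 0.023 with quantile normalization and 0.57 without the 3 arrays. D16349_at was 0.42 with the 5th percentile floor and 0.68 without the 3 arrays, where S79903mRNA_at was 0.34. S79903mRNA_g_at was -0.31 with the 40th percentile floor and -0.036 with a pseudocount, and Penk was 0.25 with the 5S block. With the replicate number as a block (replicate block), 0 probe sets passed in each comparison, and S79903mRNA_g_at was -0.12 at 2 hr against 1 hr; no other sign changed.

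At 2 hr against control, Oprk1 was -0.13 with the 5S block, -0.012 with the 40th percentile floor, -0.046 with median centring and -0.014 with quantile normalization. S79903mRNA_g_at was -0.051 with the 40th percentile floor. Pdyn M10088cds_s_at was -0.079 with the 5S block, -0.0056 with median centring and -0.030 with quantile normalization, Pdyn M32783cds_i_at was -0.072 with median centring, and Penk was 0.19 without the 3 arrays.

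Leaving out each array in turn gave, at 1 hr against control, -0.20 to 0.34 for Oprd1, -0.63 to 0.86 for Oprk1, -0.79 to 1.30 for D16349_at, -0.58 to 0.93 for S79903mRNA_g_at, -0.25 to 0.87 for Oprm1 S77863_s_at, -0.35 to 0.17 for Pdyn M10088cds_s_at and -1.10 to 0.37 for Penk. At 2 hr against 1 hr it gave -0.43 to 0.11 for Oprd1, -0.83 to 0.66 for Oprk1, -1.45 to 0.64 for D16349_at, -0.62 to 0.29 for S79903mRNA_at, -0.74 to 0.77 for S79903mRNA_g_at, -0.16 to 0.46 for M10088cds_s_at and -1.05 to 0.021 for Penk. At 2 hr against control it gave -0.12 to 0.28 for Oprk1, -0.30 to 0.10 for D16349_at, -0.25 to 0.36 for M10088cds_s_at and -0.12 to 0.12 for M32783cds_i_at.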
